A study of Mus musculus with 5 samples.

Results

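The kinesin superfamily was followed in RNA-seq counts of whole mouse cerebella at postnatal day 14. Members were the protein-coding genes of the GENCODE M21 annotation whose symbol begins with Kif or Kifc and a digit, 43 of the 55421 genes in the deposited count table. One of them, Kif1bp, encodes a protein that binds a kinesin and has no motor domain, so 42 motor genes were described: 14 mitotic kinesins, 17 transport kinesins and 11 others. The control libraries (n = 2) came from mice of the genotype Pcp2 Cre/+; Yy1 fx/+, which carry the recombinase and 1 floxed copy of Yy1. The Yy1 cKO libraries (n = 3) came from littermates of the genotype Pcp2 Cre/+; Yy1 fx/fx, with 2 floxed copies. All 5 libraries thus shared the Pcp2-driven Cre, which acts in Purkinje cells, while RNA came from every cell type of the cerebellum, and the sexes were mixed. The labels do not tie a library to an animal or litter beyond its number, so p-values measure the spread between these libraries, part of which may be technical.

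Kinesins are motor proteins that use ATP to move along microtubules or to shape them. Mitotic kinesins build the spindle, move chromosomes and divide the cell, and their transcripts are made mainly in cells about to divide. Transport kinesins carry vesicles, mitochondria and proteins through axons and dendrites and are abundant in neurons that no longer divide. In the cerebellum of this age the granule cell precursors of the outer layer are finishing their divisions, while Purkinje cells and granule neurons extend their processes.

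Total counts ranged from 17424860 to 20305705 per library. Levels are given as CPM, read counts scaled to the depth of the library with TMM factors, and per kilobase of exon where genes are compared with each other. Yy1 itself stood at 74.6 and 73.7 CPM in controls against 73.4, 81.7 and 75.8 CPM in Yy1 cKO (0.05 ± 0.065 as log2 fold change with its SE, adjusted p = 0.61), a whole-tissue value that does not separate the floxed part of the gene or the Purkinje cells. The libraries held the defining transcripts of the tissue, with the granule neuron gene Gabra6 at 433.4 CPM or more and the Purkinje cell gene Calb1 at 610.7 CPM or more in each. Yy1 cKO 3 stood apart on the second principal component (18.5% of the variance), so the counts for the 3 kinesin classes are also given without it.

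Mitotic kinesins were lower in Yy1 cKO with 1 exception among those tested, transport kinesins differed little and more often upwards, and the remaining members were split. Of 13 mitotic kinesins tested 12 fell and 0 rose, of 17 transport kinesins 2 fell and 7 rose, and of 9 other kinesins tested 4 fell and 1 rose (quasi-likelihood test of edgeR, p adjusted by Benjamini-Hochberg over all genes, threshold 0.05). At an unadjusted p under 0.05 in edgeR, and by DESeq2, the number of mitotic kinesins that rose was also 0. Over all 20388 genes tested 12.6% were called lower and 10.7% higher. The median log2 fold change was -2.39 for mitotic, 0.22 for transport and -0.63 for the other kinesins, and -0.001 for all genes tested. The mitotic median was also -2.39 with Kif2c, which had no counts in Yy1 cKO, set to its bound. At least 2-fold falls were called for 11 mitotic kinesins, 1 transport kinesin and 3 others, against 4.29% of all genes tested. Without the Yy1 cKO 3 library the counts were 12 lower for mitotic kinesins, 2 lower and 12 higher for transport kinesins, and 4 lower and 1 higher for the others. The members and their classes were chosen with results of these data known, so these counts are descriptions and the lists were not tested.

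**Figure D1:**
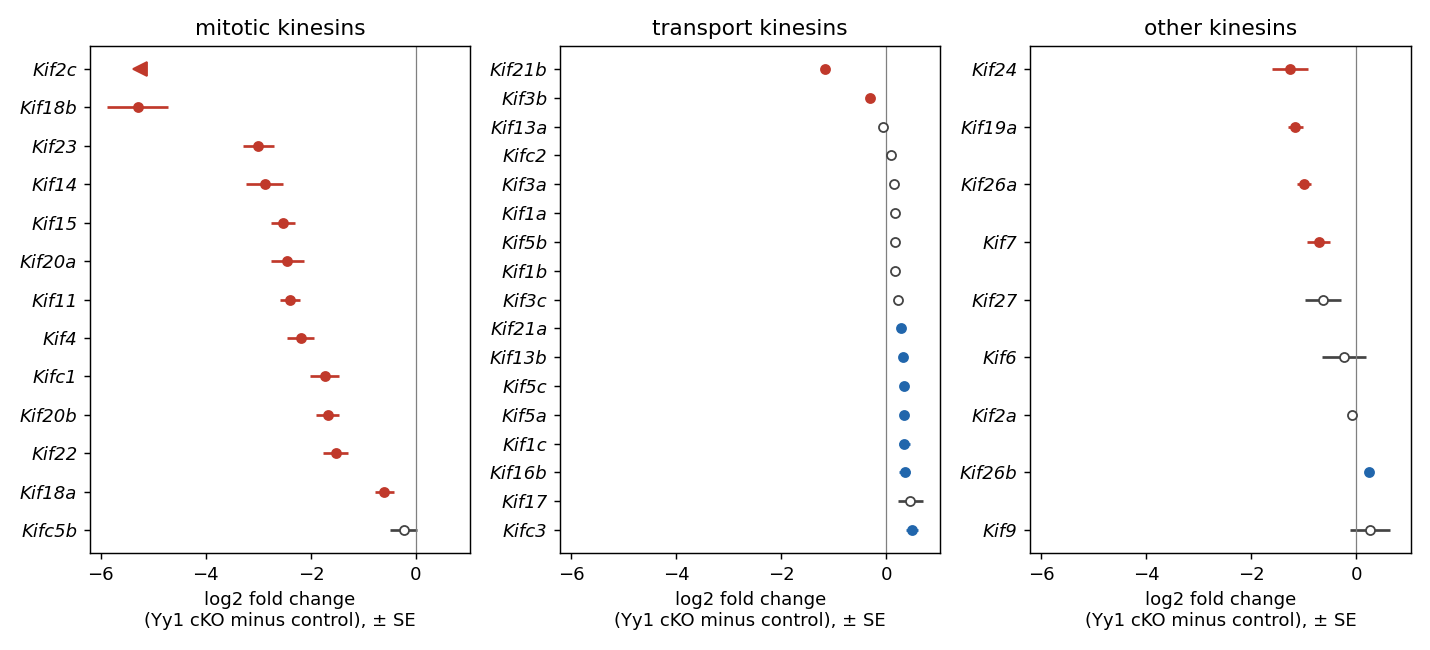
Log2 fold change (Yy1 cKO minus control, with the SE as bars) of the 39 kinesins tested, by class; filled points passed an adjusted p of 0.05, red for lower and blue for higher, and open points did not. The triangle marks Kif2c, which had no counts in Yy1 cKO, at its bound of -5.26. Most mitotic kinesins lie far to the left, with Kif18a and Kifc5b nearest to the zero line. Kif21b is the transport kinesin farthest to the left, and the 7 transport kinesins in blue lie within 0.50 of the zero line.

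Kif2c and Kif18b, which act on microtubule ends, had the deepest falls of the class. Kif2c, which takes microtubules apart at centromeres, was counted 41 and 33 times in controls and had 0 counts in all 3 Yy1 cKO libraries. Against the limit of 3 counts over the 3 libraries it was at least 38.2-fold lower (adjusted p = 0.00027). Kif18b, which shortens astral microtubules, was counted 71 and 40 times in controls against 3, 1 and 0 times in Yy1 cKO (log2 fold change -5.30 ± 0.58, adjusted p = 0.00019). Both genes passed the filter on low counts through the control libraries alone. Each control stood far above every Yy1 cKO library for both, although the controls differed from each other for Kif18b.

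The 4 motors of the central spindle and of cell cleavage fell by 1.68 to 3.0 on the log2 scale. Kif23, the motor of the centralspindlin complex, stood at 3.385 and 3.458 CPM in controls against 0.453, 0.3285 and 0.4833 CPM in Yy1 cKO (-3.0 ± 0.29, adjusted p = 8.8e-05). Kif14, which works at the midbody, stood at 3.063 and 2.733 CPM against 0.2516, 0.3285 and 0.5907 CPM (-2.88 ± 0.35). Kif20a, which brings Aurora B to the central spindle, stood at 3.546 and 3.234 CPM against 0.8053, 0.657 and 0.3759 CPM (-2.45 ± 0.31). The groups did not overlap for any of these 3 genes, as in 52.2% of all genes tested, and the Yy1 cKO libraries kept 12.3% to 18.1% of the control mean. Kif23, with 9, 6 and 9 counts in Yy1 cKO, and Kif14, with 5, 6 and 11, also passed the filter on low counts only through the control libraries. Kif20a shares 29.3% of its exon bases with Cdc23 on the opposite strand, a gene with 1000 to 1202 counts per library that did not pass the test (log2 fold change -0.01). The counting strand is not given, so reads of the 2 genes may not be fully separated. Kif20b, a relative of Kif20a that acts late in cleavage, stood at 5.319 and 4.071 CPM against 1.56, 1.369 and 1.45 CPM (-1.68 ± 0.23).

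The motors that push spindle poles apart and move chromosome arms all fell. Kif11, the main bipolar spindle motor, had the smallest p of the mitotic kinesins. It stood at 7.844 and 7.194 CPM in controls against 1.51, 1.533 and 1.235 CPM in Yy1 cKO (-2.39 ± 0.19, adjusted p = 3.2e-05). Kif15, which can take over part of the work of Kif11, went from 6.555 and 5.131 CPM to 0.9059, 1.04 and 1.074 CPM (-2.53 ± 0.23). The chromosome motor Kif4, on chromosome X, went from 4.03 and 3.29 CPM to 0.7046, 0.876 and 0.8055 CPM (-2.20 ± 0.26). Kif22, a second chromosome motor, stood at 4.191 and 4.071 CPM against 1.661, 1.478 and 1.128 CPM, 34.4% of the control mean (-1.53 ± 0.23). In each of these 4 genes every control library was above every Yy1 cKO library, while groups were separate in either direction in 52.2% of all genes tested. Exons of Pdzd11 on the opposite strand, with 227 to 261 counts per library, cover 15.1% of those of Kif4.

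Kif18a and Kifc5b differed least among the mitotic kinesins tested, while Kifc1, a close copy of Kifc5b, fell. Kif18a, which steadies chromosomes at the spindle equator, stood at 6.34 and 5.465 CPM against 4.379, 3.285 and 3.974 CPM. Its fall of 0.60 ± 0.18 passed narrowly (adjusted p = 0.041) and was lost in 6 of 14 alternatives (adjusted p from 0.0075 to 0.25), among them those without control 1, control 2, Yy1 cKO 1 or Yy1 cKO 2. Kifc1, which gathers spindle poles, stood at 3.815 and 3.011 CPM against 1.258, 0.8212 and 0.9666 CPM (-1.74 ± 0.27, adjusted p = 0.0015). Its relative Kifc5b stood at 2.74 and 3.458 CPM against 2.164, 2.409 and 3.329 CPM, with overlapping groups (-0.23 ± 0.25, adjusted p = 0.56). The longest transcripts of Kifc1 and Kifc5b were identical at 2277 of 2375 aligned positions (95.9%), so their counts are uncertain where a read matches both. Kif2b had 0 counts in all libraries, which allows up to 0.0322 CPM, and was not tested.

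**Figure D2:**
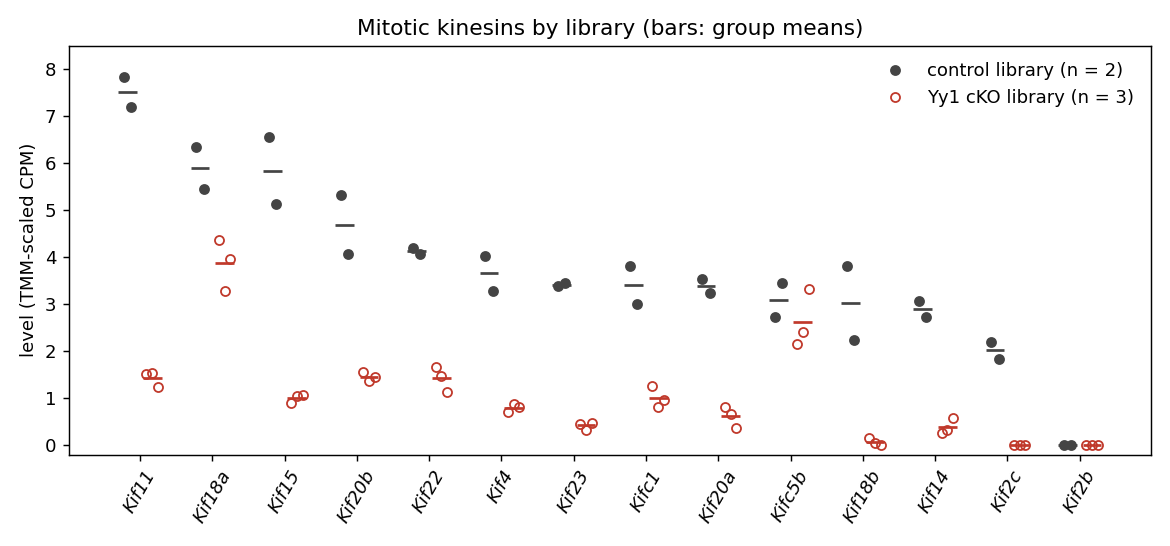
Level of each of the 14 mitotic kinesins in every library (TMM-scaled CPM, linear axis), with controls as filled and Yy1 cKO as open points and group means as bars. Each Yy1 cKO point lies below each control point in 12 genes, while Kifc5b overlaps and Kif2b is at 0 throughout. Over all genes tested the groups do not overlap, in either direction, in 52.2%.

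Summed over the class, mitotic kinesins amounted to 56.8 and 49.2 CPM in controls against 15.8, 14.2 and 15.4 CPM in Yy1 cKO. Per length of exon they made up 1.54% ± 0.15 (SD, n = 2) of all kinesin transcripts in the controls and 0.395% ± 0.021 (SD, n = 3) in Yy1 cKO. With Kif18a and Kifc5b left out, a choice made after their values were seen, the share went from 1.30% to 0.225%. Markers of dividing cells moved with these genes. Of 8 division markers 6 were called lower, with a summed level of 101 to 119 CPM in the controls and 32.4 to 33.9 CPM in Yy1 cKO, and none was at 0 in all 3 Yy1 cKO libraries. Mki67, the proliferation marker, fell by 4.60 ± 0.30. Of 8 granule cell precursor markers 6 were called lower (176 to 198 against 51.9 to 57.9 CPM in sum), and of 7 markers of oligodendrocyte precursors, which also divide at this age, 6 were called lower (314 to 338 against 220 to 239 CPM), but 2 without control 2. Among the granule cell precursor markers Gli1 (0.251 ± 0.26) and Gli2 (-0.364 ± 0.123) were not called. Cdk1 (8, 8 and 8 counts in Yy1 cKO) and Atoh1 (0, 1 and 0) passed the filter on low counts through the control libraries alone. Ccnb1 was low in Yy1 cKO too (1, 2 and 11 counts). In whole tissue, fewer cells of a type and less RNA per cell cannot be told apart, and the part of these markers in the fall of the mitotic kinesins was not tested.

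Most promoters of mitotic kinesins held a short motif of cell cycle genes that was in none of the transport kinesin promoters read. Many genes of late cell division carry a cell cycle homology region (CHR), TTTGAA or TTCGAA, often near a CCAAT box, where complexes that silence or activate them are known to bind. Both motifs were searched on both strands in RefSeq promoter windows (GRCm38.p6, 250 bases before to 50 after the start), which were found for 13 of 14 mitotic, 11 of 17 transport and 9 of 11 other kinesins. The transport kinesins with no window were Kif5a, Kif5b, Kif13b, Kif21b, Kifc2 and Kifc3. The search thus says nothing of Kif21b, the 1 transport kinesin with a fall of at least 2-fold. Only the first listed window of each kinesin was read, and other starts of the same gene were not. TTTGAA or TTCGAA was present in 11 of 13 mitotic windows (84.6%), 0 of 11 transport windows and 3 of 9 windows of the others. It was present in 19.2% of all 32851 windows of the table and in 13.5% of 11189 windows of protein-coding genes tested here (1 window per gene). Within 50 bases of the start, a limit chosen after the positions were seen, it was present in 9 of 13 mitotic windows (69.2%) and 3.28% of those 11189. CCAAT was present in 9 of 13 mitotic windows (69.2%), 3 of 11 transport windows (27.3%) and 38.7% of the protein-coding windows, and both motifs together in 8 of 13 (61.5%), 0 of 11 and 5.9%. The windows of Kifc1 and Kifc5b share long runs of the same letters, as their transcripts do. Both are counted in each of these mitotic shares, although they are not independent examples. A match is a description of letters and not a bound site. The 2 mitotic windows with no CHR letters were those of Kif18a and Kif2b, and Kifc5b holds them although it did not pass the test.

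The mitotic promoters shown belong to the genes with the deepest falls for which a window was found, and to Kif22, whose fall was smaller. That of Kif14 is left out because its CHR letters begin 228 bases before the start, outside the stretch printed. Each runs 5′ to 3′ from 150 bases before to 30 after the start on GRCm38.p6, and capitals mark CHR letters (TTTGAA or TTCAAA on the strand shown, and TTCGAA in Kif24) and CCAAT (or ATTGG).
Kif18b (chr11:102925095-102925274, minus strand): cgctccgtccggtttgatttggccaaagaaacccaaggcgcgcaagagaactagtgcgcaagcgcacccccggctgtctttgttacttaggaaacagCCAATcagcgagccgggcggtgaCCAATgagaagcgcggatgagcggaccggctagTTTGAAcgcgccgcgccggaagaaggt
Kif23 (chr9:61946770-61946949, minus strand): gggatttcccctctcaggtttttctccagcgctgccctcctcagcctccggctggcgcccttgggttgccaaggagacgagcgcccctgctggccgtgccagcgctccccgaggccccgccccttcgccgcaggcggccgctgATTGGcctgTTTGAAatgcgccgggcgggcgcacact
Kif11 (chr19:37376232-37376411, plus strand): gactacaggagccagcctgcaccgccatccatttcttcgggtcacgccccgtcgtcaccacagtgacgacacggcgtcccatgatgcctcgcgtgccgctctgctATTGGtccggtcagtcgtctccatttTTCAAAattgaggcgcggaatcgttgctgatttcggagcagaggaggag
Kif15 (chr9:122950931-122951110, plus strand): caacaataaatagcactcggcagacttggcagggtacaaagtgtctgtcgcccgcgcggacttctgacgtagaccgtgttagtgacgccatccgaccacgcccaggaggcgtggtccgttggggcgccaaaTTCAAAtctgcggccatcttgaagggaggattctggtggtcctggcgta
Kif22 (chr7:127042391-127042570, minus strand): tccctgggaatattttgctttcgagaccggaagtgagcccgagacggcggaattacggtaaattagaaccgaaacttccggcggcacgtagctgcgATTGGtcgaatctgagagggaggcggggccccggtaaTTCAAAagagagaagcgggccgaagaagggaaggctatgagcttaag
Kif2c (chr4:117178743-117178922, minus strand): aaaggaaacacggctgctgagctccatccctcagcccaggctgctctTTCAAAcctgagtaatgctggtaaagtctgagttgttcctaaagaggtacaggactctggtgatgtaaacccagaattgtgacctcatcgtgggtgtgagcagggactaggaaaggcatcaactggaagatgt
In Kif18b a pair of CCAAT matches begins 53 and 30 bases before the start and the CHR letters begin at base 4 after it. In Kif11, Kif15 and Kif22 the CHR letters begin 17 to 19 bases before the start, on the other strand, while in Kif2c they lie farther away, 103 bases before it. The Kif2c window lies well inside the annotated gene, whose 5′ end is at base 117182639, so that distance holds for the start of this window only. The windows of Kif14, Kif17 and Kif27 also lie well inside their genes.

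For comparison, the windows of 4 other kinesins are given: Kif18a, the mitotic kinesin with the smallest called fall, Kif5c, the transport kinesin with the highest level, Kif16b, the transport kinesin with the largest called change among those with a window, and Kif24, the kinesin outside both classes that fell most. The first 3 hold neither motif, and that of Kif24 holds both.
Kif18a (chr2:109280588-109280767, plus strand): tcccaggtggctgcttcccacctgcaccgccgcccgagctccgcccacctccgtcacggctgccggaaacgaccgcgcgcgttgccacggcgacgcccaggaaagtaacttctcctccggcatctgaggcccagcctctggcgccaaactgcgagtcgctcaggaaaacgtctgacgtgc
Kif5c (chr2:49619136-49619315, plus strand): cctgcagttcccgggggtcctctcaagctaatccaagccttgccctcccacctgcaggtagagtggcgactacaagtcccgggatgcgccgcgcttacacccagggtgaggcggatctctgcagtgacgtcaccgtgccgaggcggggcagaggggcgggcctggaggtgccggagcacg
Kif16b (chr2:142901435-142901614, minus strand): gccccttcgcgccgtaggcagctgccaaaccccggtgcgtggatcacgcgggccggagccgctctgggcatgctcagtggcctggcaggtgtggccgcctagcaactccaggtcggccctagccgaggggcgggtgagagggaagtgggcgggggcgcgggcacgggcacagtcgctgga
Kif24 (chr4:41464819-41464998, minus strand): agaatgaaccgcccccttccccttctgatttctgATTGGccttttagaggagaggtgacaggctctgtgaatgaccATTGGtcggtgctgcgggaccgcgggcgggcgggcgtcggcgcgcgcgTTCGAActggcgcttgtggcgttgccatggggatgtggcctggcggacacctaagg
A YY1 core, AANATGGC on either strand, was searched in the whole windows as well. It was present in 2 of 13 mitotic windows (Kif15 and Kif20b), 1 of 11 transport windows (Kif13a), 1 of 9 windows of the others (Kif27) and 8.17% of the protein-coding windows. An E2F core (TTTGGCGC, TTTCCCGC or TTTCGCGC) was present in 2 of 13 mitotic windows (Kif15 and Kif18a), in no window of the other classes and in 3.41% of the protein-coding windows.

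Transport kinesins were the abundant part of the family, at 4594 to 4649 CPM in sum in the controls and 5272 to 5292 CPM in Yy1 cKO, with no overlap. By level per length the first in the controls were Kif5c (113.7 ± 9.5 CPM per kb, SD, n = 2), Kif1a (102.3 ± 3.7), Kif1b (63.18 ± 1.0), Kif5a (62.96 ± 3.4), Kif5b (33.65 ± 0.29) and Kifc2 (29.40 ± 0.093). Kif5c and Kif1a differed by little more than the spread between the controls, and Kif1b and Kif5a by less. The same 6 genes led in Yy1 cKO, where Kif5a (79.78 ± 4.8) stood above Kif1b (71.33 ± 0.57). Over the longest transcript, Kif1b stood at 108.7 and Kif5a at 69.92 CPM per kb in the controls. The closeness of these 2 genes in the controls and their order in Yy1 cKO thus depend on the length used. Every mitotic kinesin stood at or below 1.008 CPM per kb in the controls.

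The heavy chains of conventional kinesin, which carry mitochondria and many vesicles down axons, were higher in their neuronal forms. Kif5c stood at 764 and 860.1 CPM in controls against 1035, 1000 and 1033 CPM in Yy1 cKO (log2 change 0.33 ± 0.071, adjusted p = 0.0086). Kif5a, the form mutated in a hereditary spastic paraplegia, stood at 457 and 423.3 CPM against 568.9, 584.1 and 520 CPM (0.34 ± 0.072, adjusted p = 0.0078). Kif5b, the form of all tissues, stood at 266.9 and 270.2 CPM against 301.2, 313.2 and 291 CPM, and its difference of 0.17 ± 0.058 did not pass (adjusted p = 0.064). The groups did not overlap for any of the 3 genes, which also holds for 52.2% of all genes tested. The share of Kif5b among the 3 forms, per length, was 16.3% and 15.8% in controls against 14.3%, 14.9% and 14.3% in Yy1 cKO.

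Among the motors of synaptic vesicle precursors and endosomes, the abundant Kif1a and Kif1b did not pass and 3 less abundant motors rose. Kif1a, which carries synaptic vesicle precursors, stood at 978.9 and 930.5 CPM against 1053, 1049 and 1108 CPM (0.16 ± 0.065, adjusted p = 0.10). Kif1b stood at 1125 and 1100 CPM against 1257, 1246 and 1266 CPM (0.18 ± 0.062, adjusted p = 0.072). Neither passed, and the groups of both were separate, as in 52.2% of all genes tested. Kif1c, a motor of Golgi-derived vesicles found in many cell types, rose from 72.48 and 79.52 CPM to 88.28, 91.7 and 110.1 CPM (0.35 ± 0.099, adjusted p = 0.037). Kif13b rose from 74.74 and 69.1 CPM to 86.57, 85.24 and 96.01 CPM (0.31 ± 0.072), and the endosome motor Kif16b from 16.92 and 17.96 CPM to 24.41, 21.9 and 20.67 CPM (0.36 ± 0.11). Kif13a, a close relative of Kif13b, had overlapping groups, at 106.2 and 96.87 CPM against 92.96 to 102 CPM (-0.05 ± 0.066, adjusted p = 0.64).

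The Kif3 motors, which move cargo in axons and along cilia, split. Kif3b, which pairs with Kif3a, fell from 80 and 89 CPM to 68.95, 66.24 and 68.79 CPM (-0.31 ± 0.065, adjusted p = 0.0074), a call lost without control 2 (adjusted p = 0.12). Kif3a itself stood at 87.74 and 80.14 CPM against 96.58, 92.41 and 89.94 CPM (0.15 ± 0.065, adjusted p = 0.14). Kif3c, the alternative partner found in neurons, stood at 196 and 176.1 CPM against 219.9, 234.2 and 197.6 CPM (0.22 ± 0.080, adjusted p = 0.075). Antisense 1110002L01Rik covers 35.3% of the exon bases of Kif3c and had 172 to 213 counts per library. Per length the ratio of Kif3b to Kif3a was 0.58 and 0.707 in controls against 0.454, 0.456 and 0.487 in Yy1 cKO. Kif17, a dendritic motor of receptor vesicles, had overlapping groups (0.46 ± 0.24, adjusted p = 0.21).

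Kif21b had the largest fall of the 2 transport kinesins that fell. This motor of dendrites and growing axons, which also slows microtubule growth, stood at 134.2 and 118.3 CPM in controls against 52.85, 56.12 and 60.57 CPM in Yy1 cKO. Its fall of 1.16 ± 0.077 had the smallest p of the whole family (adjusted p = 1.2e-05) and passed in each of 14 alternatives. The close relative Kif21a, which binds microtubules at the cell edge and axon, moved the other way, from 147.9 and 144.3 CPM to 181.7, 172.9 and 180 CPM (0.29 ± 0.054, adjusted p = 0.0042). Per length, the ratio of Kif21b to Kif21a was 0.482 and 0.436 in controls against 0.155, 0.173 and 0.179 in Yy1 cKO. Markers of immature neurons were also lower: 8 of 8 were called, with a summed level of 1363 to 1413 CPM in the controls and 459 to 562 CPM in Yy1 cKO. The share called lower over all genes tested was 12.6%. The part of these markers in the fall of Kif21b was not tested.

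The minus-end transport motors were few. Kifc3, a motor of apical membranes and cell junctions, had the largest rise among the transport kinesins called. It went from 18.11 and 18.9 CPM to 26.72, 28.69 and 22.88 CPM (0.50 ± 0.11, adjusted p = 0.012). Kifc2, found in axons and dendrites, stood at 115.8 and 115.3 CPM against 119.8 to 130.1 CPM (0.10 ± 0.058, adjusted p = 0.25).

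The 7 rises, of 0.29 to 0.50 on the log2 scale, rested on both controls. Without control 1 the number called was 1, without control 2 it was also 1, without Yy1 cKO 1 it was 6, and without Yy1 cKO 2 it was 5. Kif5c lost its call without control 1 (adjusted p = 0.13), Kif5a without control 2 (adjusted p = 0.12), and Kif21a, Kifc3, Kif13b, Kif1c and Kif16b without either control. The highest adjusted p over the alternatives was 0.069 for Kif21a and 0.24 for Kif1c. Scaled by library totals alone 4 were called. Markers of mature cells moved with them. Of 8 granule neuron markers 6 were called higher (2859 to 2960 CPM in sum in the controls, 3627 to 3991 CPM in Yy1 cKO), as were 6 of 8 interneuron markers (789 to 859 against 1133 to 1186 CPM, 4 of them when control 2, Yy1 cKO 1 or Yy1 cKO 2 was left out) and 1 of 8 Purkinje cell markers. The share called higher over all genes tested was 10.7%. The part of these markers in the rise of the transport kinesins was not tested.

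**Figure D3:**
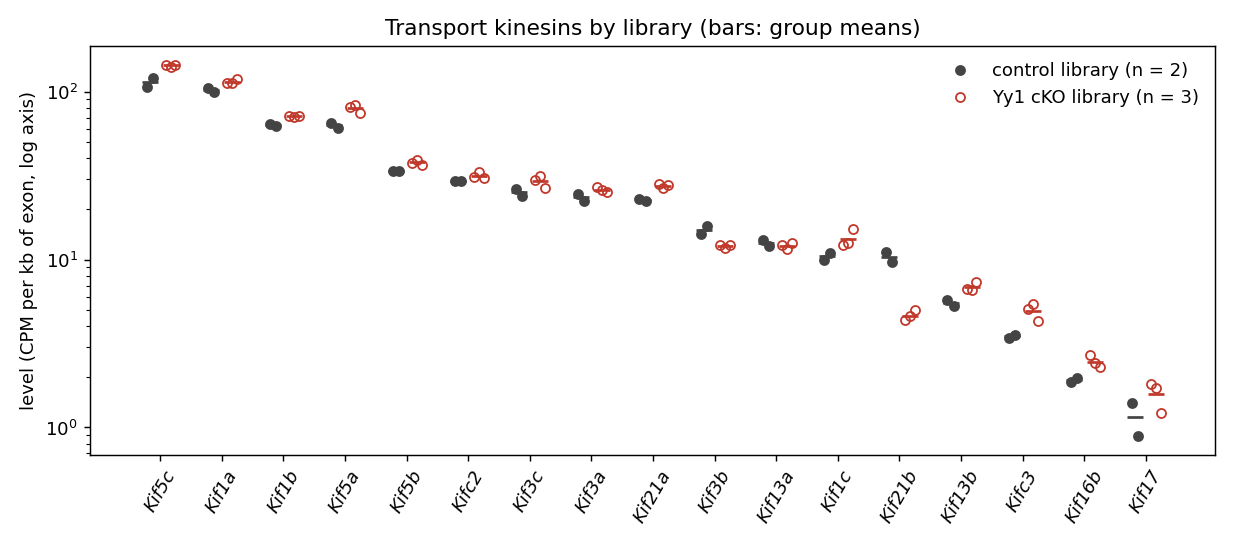
Level of each of the 17 transport kinesins in every library (CPM per kb of exon, log axis), ordered by the control mean, with controls as filled and Yy1 cKO as open points and group means as bars. The order runs from Kif5c at 113.7 to Kif17 at 1.148 CPM per kb in the controls; Kif21b drops clear of its controls while most others lie slightly above theirs.

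The other kinesins act in cilia, in signalling or on microtubule ends. Kif24, which keeps centrioles from growing cilia and is tied to the cell cycle, fell from 4.46 and 4.294 CPM to 2.466, 0.876 and 2.094 CPM (-1.26 ± 0.34, adjusted p = 0.030). Kif7, a regulator of Gli factors at the tip of the primary cilium in Sonic hedgehog signalling, fell from 4.083 and 3.402 CPM to 2.013, 2.299 and 2.524 CPM (-0.72 ± 0.22, adjusted p = 0.039). Neither call held without control 1 or control 2 (adjusted p up to 0.15 for Kif24 and 0.24 for Kif7). That of Kif7 was also lost without Yy1 cKO 1 or Yy1 cKO 2 and with DESeq2, and the gene shares exon bases with antisense 9330171B17Rik and with Ticrr, a replication gene that fell. Kif19a, known for limiting the length of motile cilia, fell from 13.75 and 13.89 CPM to 6.845, 5.037 and 6.658 CPM (-1.16 ± 0.15, adjusted p = 0.00048). Of the ependymal markers, which include genes of motile cilia, 0 of 8 tested were lower, 1 (Foxj1) was higher, a call lost without control 1, control 2 or Yy1 cKO 2 (0 called), and their sum was 12.7 and 18.1 CPM against 14.6 to 23 CPM. At an unadjusted p under 0.05 in edgeR 1 was lower, and by DESeq2 0. Most of these markers had few counts, such as Rsph1 with 4 to 14 per library, so a fall could be missed. Dnah6, which varied within both groups (4.513 to 11.76 CPM), made up much of the sum. The part of these markers in the fall of Kif19a was not tested.

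Kif26a and Kif26b, relatives whose motor domains do not hydrolyse ATP, went apart. Kif26a, which restrains growth factor signalling in neurons, fell from 10.42 and 11.93 CPM to 5.889, 5.53 and 5.316 CPM (-1.0 ± 0.13, adjusted p = 0.00062). Kif26b rose from 186.2 and 181.9 CPM to 231.7, 226.2 and 198.4 CPM (0.25 ± 0.072, adjusted p = 0.033), a call lost in 5 of 14 alternatives, among them those that leave out any 1 library but Yy1 cKO 3, with adjusted p up to 0.21. Per length the ratio of Kif26b to Kif26a was 8.41 and 7.17 in controls against 18.5, 19.3 and 17.6 in Yy1 cKO. The window of Kif26b held CHR letters beginning 9 bases before the start, as that of Kif24 did 26 bases before it.

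Kif2a, the depolymerase of neurons and a relative of Kif2c, stood at 91.29 and 95.19 CPM against 91.7, 89.84 and 83.23 CPM (-0.08 ± 0.063, adjusted p = 0.42), with overlapping groups. Dimt1, on the opposite strand with 259 to 290 counts per library, covers 19.2% of its exon bases. The cilium genes Kif6, Kif9 and Kif27 stood at 0.5475 to 2.631 CPM in all libraries and did not pass (adjusted p = 0.74, 0.69 and 0.22). Kif28 and Kif12, with 5 counts and 1 count in all libraries together, were not tested. Kif1bp, left out of the classes, differed by 0.11 ± 0.069 (log2, adjusted p = 0.29).

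**Figure D4:**
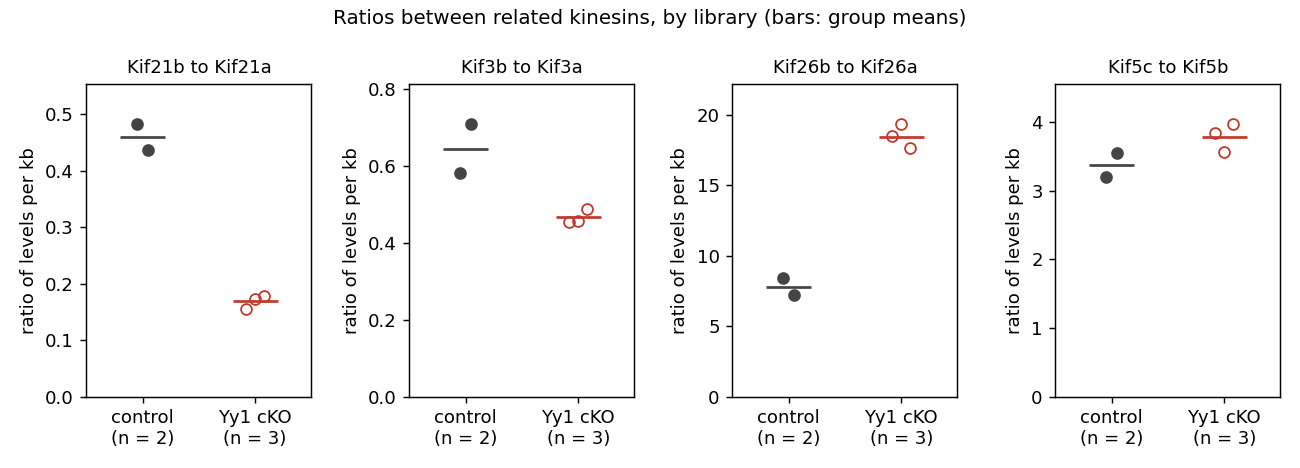
Ratios of levels per kb of exon between related kinesins in every library, with controls as filled and Yy1 cKO as open points and group means as bars; each vertical axis starts at 0. The ratio of Kif21b to Kif21a falls from a mean of 0.459 to 0.169 and that of Kif26b to Kif26a rises from 7.79 to 18.4, while the ratio of Kif3b to Kif3a moves from 0.644 to 0.466 and that of Kif5c to Kif5b from 3.38 to 3.79.

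Most partners of mitotic kinesins were lower as well. Of 18 partners of mitotic kinesins 15 fell and 0 rose (median log2 fold change -2.08), and 0 rose at an unadjusted p under 0.05 in edgeR or by DESeq2. Without control 1 the number that fell was 9, and over all genes tested 12.6% were called lower. Cenpe, a kinetochore kinesin outside the naming rule, was counted 145 and 139 times in controls against 40, 26 and 40 times in Yy1 cKO (-2.06 ± 0.20, adjusted p = 0.0001). Hmmr, a spindle protein, fell by 4.07 ± 0.35, Tpx2, which targets spindle motors, by 2.48 ± 0.20, and Prc1, the bundler on which Kif4 works, by 2.11 ± 0.21. With 3, 4 and 3 counts in Yy1 cKO, Hmmr passed the filter on low counts through the control libraries alone. So did Aurkb (4, 0 and 1 counts), Birc5 (7, 5 and 0), Ndc80 (0, 4 and 7) and Kntc1 (4, 9 and 5). Sgo1 was low in Yy1 cKO too (14, 9 and 3 counts). All of these are among the 15 falls counted. Racgap1, the partner of Kif23 in centralspindlin, fell much less, from 13.97 and 14.16 CPM to 9.16, 10.84 and 9.129 CPM (-0.54 ± 0.12). The 3 that did not pass were Incenp (-0.20 ± 0.13), Nuf2 (-0.75 ± 0.26) and Cit (0.28 ± 0.19), named after their values were seen, as Racgap1 was.

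Of 30 kinesin light chains and cargo adaptors 12 rose and 3 fell (median 0.12), beside 10.7% higher and 12.6% lower over all genes tested. Without control 1 they were 5 higher and 1 lower, and without control 2 they were 5 higher and 2 lower. Klc2, a light chain of the Kif5 motors, rose by 0.55 ± 0.080, from 123.4 and 120.7 CPM to 175.6, 197.6 and 162.6 CPM. The scaffold genes Mapk8ip3 and Mapk8ip2, which link cargo to these motors, rose by 0.38 ± 0.056 and 0.39 ± 0.060. Lin7c, part of the complex that ties receptor vesicles to Kif17, fell by 0.46 ± 0.054. Of 29 dynein and dynactin genes, the motor of the opposite direction, 5 rose and 4 fell (median 0.04), shares near those over all genes tested. Leaving out control 1 gave 1 higher and 1 lower, control 2 gave 0 higher and 2 lower, Yy1 cKO 1 gave 2 higher and 3 lower, Yy1 cKO 2 gave 3 higher and 2 lower, and Yy1 cKO 3 gave 8 higher and 5 lower. Dctn1, the large dynactin subunit, rose by 0.32 ± 0.057, while Dynll1, a small light chain with roles outside dynein, fell by 0.52 ± 0.057. Actr1a, the filament subunit of dynactin, fell by 0.26 ± 0.053 and the intermediate chain gene Dync1i2 by 0.25 ± 0.064. Spdl1, the adaptor of dynein at kinetochores, named after its value was seen, had the largest fall of the 4 (log2 fold change -1.275 ± 0.34). Of 25 intraflagellar transport genes, cargo trains of Kif3a and Kif3b in cilia, 1 rose (Ift80, 0.33 ± 0.091) and 0 fell, with 1 lower at an unadjusted p under 0.05 in edgeR and 0 by DESeq2. The call of Ift80 was lost without control 2, Yy1 cKO 1 or Yy1 cKO 2 (0 higher), and without Yy1 cKO 3 the counts were 1 higher and 1 lower.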

How the data were processed

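Bulk RNA-seq of 2 control and 3 Yy1 cKO cerebella was analysed. Per the labels' protocols, TRIzol RNA was depleted of ribosomal RNA for strand-specific libraries, with paired reads of 150 bp. FastQC 0.11.8 and Trimmomatic 0.39, STAR 2.7.1a and featureCounts on GRCm38, and DESeq2 1.26.0 are listed, with no role or order, per the submitters' processing notes. Their settings, strand included, are not given in the sources read. The authors deposited raw read counts, and a normalized signal, which is the raw count divided by 1 constant per library and was used in 1 alternative. Identifiers were matched to GENCODE M21 on GRCm38 (54673 with version, 567 without, 181 unmatched).

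Raw counts were tested with edgeR 4.0.16 (R 4.3.3, quasi-likelihood test), over all 20388 genes passing filterByExpr, with TMM scaling, robust dispersion and Benjamini-Hochberg adjustment over all genes. The test was checked on simulated data. Alternatives were other scalings and filters, DESeq2 1.42.0, limma 3.58.1 (voom, and trend on log2 of the deposited signal plus 1), no robust dispersion, a replicate block, a threshold of 0.01, other classes, other lengths and windows, and leaving out each library. No pair of libraries was a copy (chi-square per gene at least 3.5). Members, classes and lists were chosen with earlier results of these data known. Genes named were the members called with a mean of at least 1 CPM and the 6 most abundant transport kinesins, by library, up to 4 called genes by p from a partner list, Cenpe, Mki67 and Yy1. The other members were named to account for the family, and marker and overlapping genes where a value touches a member. Promoters printed were those of the largest called changes in each class with a window, plus Kif22, Kif18a and Kif5c.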

Additional observations from a re-analysis of the deposited data

How the results depend on the processing

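No kinesin changed sign past the threshold under any of the alternatives run: of 558 values, 501 stayed on their side of it, 39 lost a call and 18 gained one. The calls of 11 mitotic kinesins, and of Kif21b, Kif19a and Kif26a, held under each alternative in which they were tested (Kif2c was not tested with a mean of at least 1 CPM), and each of the 7 rises of transport kinesins was lost in at least 1. Leaving out 1 library gave 11 to 12 lower mitotic kinesins, 1 to 2 lower and 1 to 12 higher transport kinesins, 2 to 4 lower and 0 to 1 higher others, 1267 to 3127 lower and 887 to 2990 higher genes in all, and 18 to 47 higher members of the partner and marker lists. With only 1 control in the fit, that control is taken to vary like the Yy1 cKO group. Scaling by library totals alone gave 4 higher transport kinesins, 0 higher others and 1432 higher genes (29.8% of calls against 45.9%), with a shift of the median of -0.078. An adjusted p of 0.01 gave 3 higher transport kinesins, and 2 lower and 0 higher others. With Kif21a and Kif21b counted among the others and Kif2a and Kif24 among the mitotic, 1 transport kinesin was lower and 2 others were higher. Over the longest transcript the mitotic share was 1.85% in the controls and 0.475% in Yy1 cKO. The replicate block gave 14 higher transport kinesins and 3486 higher genes. The deviations of same-numbered libraries correlated at 0.037 and 0.013, so the numbers were not taken to pair the libraries. At these totals each of the 13 mitotic kinesins tested rests on 33 to 146 counts in a control, which makes their values coarser than those of most transport kinesins.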

Other observations

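Markers of cell types with no clear place among mitotic or neuronal kinesins were counted as well (edgeR, adjusted p under 0.05, beside 12.6% lower and 10.7% higher over all genes tested), and their part in any kinesin value was not tested. Leaving out each library for these lists was added after the data were seen. Of 7 erythroid markers tested 4 were called higher and 1 lower, with a summed level of 346 to 390 CPM in the controls and 641 to 1013 CPM in Yy1 cKO. Without control 1 or control 2 the erythroid counts were 0 in both directions, and without Yy1 cKO 1, 2 and 3 in turn 5, 2 and 1 were higher. Of 8 endothelial and pericyte markers 4 were lower and 1 higher (322 to 364 against 231 to 266 CPM), and 2 were lower without control 1, control 2 or Yy1 cKO 1. Of 6 choroid plexus markers tested 2 were lower and 1 higher (162 to 169 against 130 to 146 CPM). Without Yy1 cKO 2 1 was lower, and without Yy1 cKO 1 0 were higher. Not every call held without control 1 or control 2. The 2 lower were Enpp2 (control mean 144.1 against 122.5 CPM in Yy1 cKO), which made up most of the sum, and Otx2 (15.58 against 8.726 CPM). The 1 higher was Ttr, at a low level (0.2727 against 0.8081 CPM), so the sum mainly follows Enpp2. Folr1 and Kcne2, at 0 to 4 counts per library, were not tested. These calls are therefore not read as a change of choroid plexus. Of 8 markers of astrocytes and Bergmann glia 3 were higher and 1 lower (2716 to 2769 against 3198 to 3306 CPM), with 1 higher without control 2. Of 8 oligodendrocyte markers 2 were higher and 1 lower, with sums that overlapped (6673 to 6713 against 6414 to 7107 CPM), and without control 1 the counts were 0 in both directions. None of 7 microglial markers tested was called, at an unadjusted p under 0.05 or by DESeq2 either (0 in each direction), with 81.3 to 87.1 CPM in the controls and 71.3 to 98.3 CPM in Yy1 cKO.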
